A study of Homo sapiens with 6 samples.

Results

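The Polo-like kinases PLK1, PLK2, PLK3 and PLK4 were taken by gene symbol from the normalized count table of the SaOS-2 p21 experiment, and they are 4 of its 23228 rows. SaOS-2 is a human osteosarcoma cell line that the study describes as lacking functional RB. All 6 libraries came from SaOS-2 cells with a Tet-inducible p21 vector, grown in DMEM with 10% FBS: 3 from untreated cells (p21 OFF) and 3 from cells given doxycycline at 1 µg/ml (p21 ON), which the labels put at 24 h. p21, the product of CDKN1A, inhibits cyclin-dependent kinases, and the comparison asks how transcript levels differ after its induction by doxycycline. Cells given doxycycline without the vector were not analysed here, so effects of the drug and of p21 cannot be told apart, and the sources used here do not say whether the line is 1 clone.

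Polo-like kinases are serine/threonine kinases whose polo-box domain docks them to their targets. PLK1 acts from mitotic entry to cytokinesis, at centrosomes, kinetochores and the midbody, and PLK4 is the kinase that starts centriole duplication. PLK2 and PLK3 were described as early-response genes, induced by serum or stress. The family is therefore often divided into mitotic and stress-responsive members, and this division was compared between p21 ON and p21 OFF.

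The libraries held between 12795490 and 21975045 reads on genes. Replicates differed by more than sampling noise, and p21 OFF replicate 1 stood apart from the other p21 OFF libraries: its chi-square per gene against p21 OFF replicate 3 was 9.26, and all replicate pairs without it gave 2.71 to 3.98, where sampling alone gives about 1. CDKN1A, the induced gene, rose from 1266 ± 84.5 to 43691 ± 3138 normalized counts (SD, n = 3 in each group), a log2 fold change of 5.11. The osteoblast-lineage gene ALPL had 28158 to 50525 reads per library, whereas the leukocyte marker PTPRC had 3 to 11 and the endothelial marker PECAM1 9 to 16. The epithelial marker EPCAM had 265 to 427 reads, at 330 ± 38.9 normalized counts in p21 OFF and 313 ± 18.6 in p21 ON.

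In GRCh37 (hg19), PLK1 lies on the plus strand of chromosome 16 (23688977 to 23701688) and its canonical GENCODE transcript has 10 exons and 2160 bases. PLK4 lies on the plus strand of chromosome 4 (128802048 to 128820379), with 16 exons and 3838 bases. PLK2 lies on the minus strand of chromosome 5 (57749809 to 57755966), with 14 exons and 2786 bases, and PLK3 on the plus strand of chromosome 1 (45266049 to 45271662), with 15 exons and 2340 bases. Exons of PLK1 overlap those of ERN2 and of a long non-coding RNA on the opposite strand, and exons of PLK3 overlap those of DYNLT4. ERN2 had 0 reads in every library and DYNLT4, listed as TCTEX1D4, had 0 to 5 against 990 or more for PLK1 and 134 or more for PLK3. The strand setting of the counting is not given in the sources used here, and no value of the long non-coding RNA was used. PLK2 and PLK4 overlap no annotated exon of another gene.

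The 250 bases before the RefSeq start of each gene are shown because cell cycle and stress promoters differ in known short elements, and these sequences are the regulatory stretch nearest to each start. They are given 5′ to 3′ on the strand of the gene, from the RefSeq promoter table of GRCh38.p14 and placed on GRCh37 by exact match. PLK4 has 3 RefSeq starts, and the window at its canonical GENCODE start is used. Other annotated transcripts of PLK1 and PLK2 start further upstream. The spans are chr16:23689960-23690209 (PLK1, plus strand), chr4:128801798-128802047 (PLK4, plus strand), chr5:57755914-57756163 (PLK2, minus strand) and chr1:45265799-45266048 (PLK3, plus strand). Capitals mark the motif matches described in the next paragraph.
PLK1: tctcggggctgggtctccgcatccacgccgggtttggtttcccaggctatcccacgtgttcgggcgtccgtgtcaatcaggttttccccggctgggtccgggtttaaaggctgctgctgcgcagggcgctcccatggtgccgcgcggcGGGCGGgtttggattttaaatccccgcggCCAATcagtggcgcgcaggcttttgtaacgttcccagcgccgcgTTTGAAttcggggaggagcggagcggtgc
PLK4: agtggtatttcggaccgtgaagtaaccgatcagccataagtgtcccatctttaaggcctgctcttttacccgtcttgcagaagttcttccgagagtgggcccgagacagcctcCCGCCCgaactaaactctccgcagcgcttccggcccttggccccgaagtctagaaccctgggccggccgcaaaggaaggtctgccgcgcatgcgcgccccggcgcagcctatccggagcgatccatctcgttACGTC
PLK2: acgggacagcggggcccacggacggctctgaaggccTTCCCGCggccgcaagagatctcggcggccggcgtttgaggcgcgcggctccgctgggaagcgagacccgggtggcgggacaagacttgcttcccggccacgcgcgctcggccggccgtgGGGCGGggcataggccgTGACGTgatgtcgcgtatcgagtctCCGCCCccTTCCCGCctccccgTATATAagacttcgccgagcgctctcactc
PLK3: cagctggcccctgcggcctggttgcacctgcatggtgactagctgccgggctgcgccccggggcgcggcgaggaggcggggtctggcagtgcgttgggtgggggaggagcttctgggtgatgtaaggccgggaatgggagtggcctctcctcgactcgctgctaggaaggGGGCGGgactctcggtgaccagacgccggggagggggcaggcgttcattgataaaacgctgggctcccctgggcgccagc

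Motifs were searched on both strands from 250 bases before to 50 bases after the start, and were chosen with these sequences visible. The cell cycle genes homology region (CHR, TTTGAA or TTCGAA), bound by MuvB complexes at many mitotic genes, was present in both mitotic members and in neither of the others. In PLK1 it began 29 bases before the start, with a CCAAT box at position -73 and a GC box (GGGCGG) at -102. In PLK4 it lay on the opposite strand at position 39 after the start, beyond the stretch printed above, in gggagattTTCAAAatggga with the match in capitals. PLK4 also held a GC box at -137 and a cyclic AMP response element core (CRE, TGACGT) at -5, both on the opposite strand, and the CRE match runs 1 base past the start.

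The PLK2 window held a different set of matches. An E2F-type motif, TTCCCGC, was found at -214 and -44 (the E2F search also took TTGGCGC, the variant TTCGCGC, and the variant TTGCCGC). The window also held a CRE core at -77, GC boxes at -94 and -52 and a TATA-type motif (TATAAA or TATATA) at -30. The PLK3 window held only GC boxes, at -80 and 43. Among 35116 RefSeq promoter windows of this length, CHR letters were present in 16.4%, CCAAT in 34.6%, the GC box in 45.0%, the CRE core in 7.98% and the TATA letters in 13.7%, and E2F letters were present in 4553 of the windows. The printed stretches were rich in G and C, at 64.8% in PLK1, 60.8% in PLK4, 71.2% in PLK2 and 70.0% in PLK3. These matches describe the letters of the windows, and binding was not measured here.

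**Figure D1:**
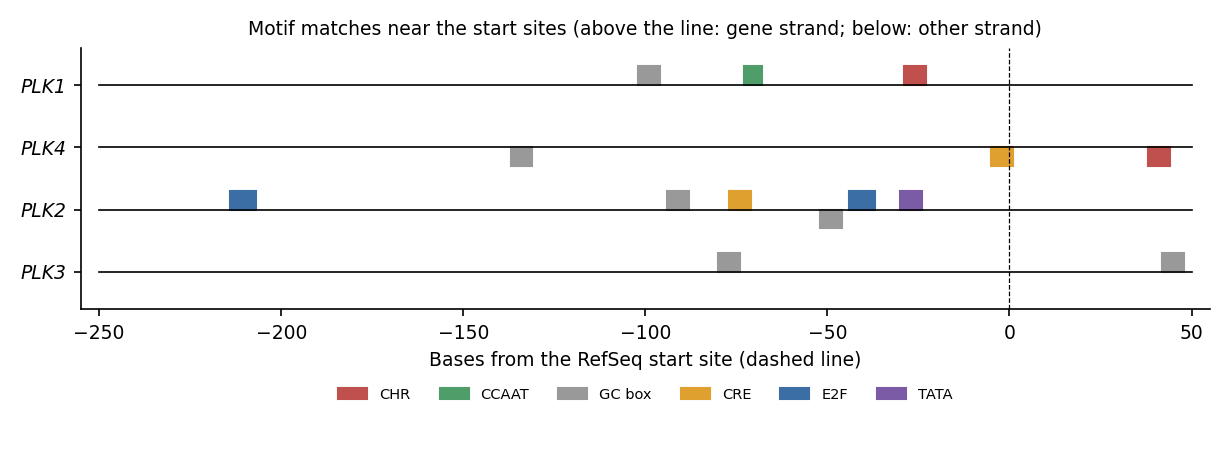
Positions of motif matches from 250 bases before to 50 bases after the RefSeq start of each Polo-like kinase gene (horizontal axis, bases from the start). Boxes above a line are matches on the strand of the gene and boxes below it matches on the other strand; the CHR boxes (red) lie in PLK1 and PLK4 only.

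PLK1 and PLK4 fell after p21 induction, PLK2 rose, and PLK3 did not pass the test. PLK1 had 3187, 3448 and 3185 normalized counts without doxycycline and 1153, 1259 and 1201 after induction, resting on 990 to 4414 reads. The 3 p21 ON libraries all lay far below the p21 OFF libraries, and the groups did not overlap. The mean fell from 3273 ± 151 to 1204 ± 53.1 (SD, n = 3), to 0.368 of its p21 OFF level on the scale of log2(normalized count + 1), with a log2 fold change of -1.44 (SE 0.06, 95% interval -1.57 to -1.31; limma adjusted p = 2.07e-11). In bulk samples, fewer cells in mitosis and less PLK1 RNA per cell cannot be told apart, and the same holds for the other genes below.

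PLK4 had 873, 824 and 899 normalized counts before induction and 312, 318 and 311 with it, from 261 to 1216 reads. Its p21 ON values were nearly identical to each other and well below every p21 OFF value. The mean fell from 865 ± 37.9 to 314 ± 3.89, to 0.363 of its p21 OFF level, with a log2 fold change of -1.46 (SE 0.07, 95% interval -1.61 to -1.31; limma adjusted p = 7.36e-11). In order of log2 fold change from the lowest, PLK4 was 28th and PLK1 34th of the 13255 genes tested.

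PLK2, a kinase of centrosomes and synapses, went the other way. It had 323, 291 and 269.8 normalized counts in p21 OFF cells and 406, 419 and 409.6 in p21 ON cells, from 257 to 431 reads. Each p21 ON library was above each p21 OFF library, and the p21 OFF libraries were the more spread. The mean rose from 295 ± 26.6 to 412 ± 6.68, a 1.40-fold increase with a log2 fold change of 0.48 (SE 0.09, 95% interval 0.30 to 0.67; limma adjusted p = 0.000701).

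PLK3, which has been linked to DNA damage and stress signalling, had 218.5, 184 and 162 normalized counts in p21 OFF cells and 180.4, 163 and 182 in p21 ON cells, from 134 to 236 reads. The p21 ON values all lay within the range of the p21 OFF values. The means were 188 ± 28.5 and 175 ± 10.5, and the log2 fold change was -0.09 (SE 0.12, 95% interval -0.34 to 0.15; limma adjusted p = 0.597). Without p21 OFF replicate 1, the library with the highest PLK3 value, the log2 fold change was 0.02, with the opposite sign. The interval covers both a fall and a rise.

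**Figure D2:**
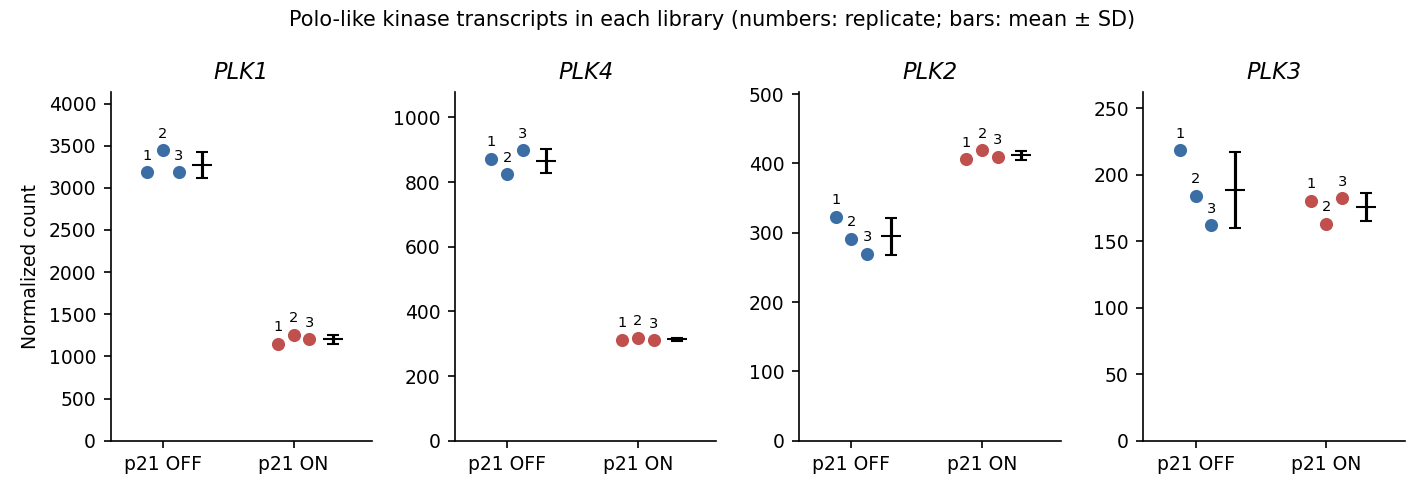
Normalized counts of the 4 Polo-like kinases in each library, with the group mean and SD (n = 3); each vertical axis is linear and starts at 0. For PLK1 and PLK4 every p21 ON point lies below the p21 OFF points, for PLK2 every p21 ON point lies above them, and for PLK3 the groups overlap.

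Of the 4 members, 2 were called lower and 1 higher. Over all 13255 genes tested 12.7% were called lower and 10.5% higher, and in 21.3% and 19.1% of the genes the p21 ON libraries lay wholly below or above the p21 OFF libraries, respectively. These shares stand for 1393 genes called higher and 1681 lower, and scaling by library size alone turned that balance to 2034 higher and 1194 lower, with the 3 kinase calls unchanged in direction and threshold. The median log2 fold change of all genes was 0.0056, and without p21 ON replicate 1 the calls over all genes dropped to 692 higher and 888 lower, with the 3 kinase calls kept. PLK5, a further family member, had 0 reads in all 6 libraries, a count that allows up to 3 reads per library by counting error.

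**Figure D3:**
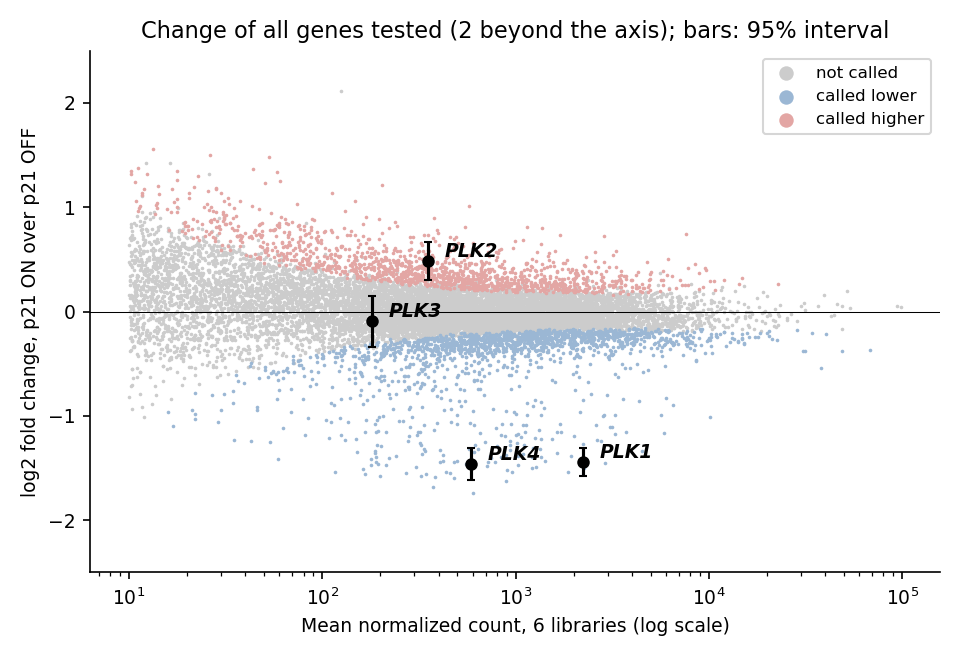
Log2 fold change (p21 ON minus p21 OFF) against mean normalized count over the 6 libraries (log axis) for the 13255 genes tested, with the 4 Polo-like kinases in black with 95% intervals and called genes in color. In this plot 2 genes lie beyond the axis limit of 2.5. PLK1 and PLK4 lie near the lower edge of the cloud at -1.44 and -1.46, PLK2 lies at 0.48, and PLK3 lies within the bulk at -0.09.

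The spread between replicates was compared with the spread that counting alone would give. For PLK1 the coefficient of variation was 4.62% in p21 OFF and 4.41% in p21 ON, against 1.69% and 3.04% from counting. PLK3 had the widest p21 OFF spread, 15.2% against 6.96% from counting, and PLK2 followed at 9.04% against 5.57%. For PLK4 the p21 OFF spread of 4.38% was close to the 3.27% from counting. In p21 ON, PLK2, PLK3 and PLK4 varied by 1.62%, 6.01% and 1.24%, each below its counting value of 5.19%, 7.98% and 5.95%.

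The order of the members was read from normalized counts per kilobase of canonical transcript, since counts alone depend on transcript length. In p21 OFF PLK1 was first with 1516 ± 70.0 normalized counts per kilobase, PLK4 next with 225 ± 9.88, PLK2 next with 106 ± 9.56 and PLK3 last with 80.4 ± 12.2. In p21 ON PLK1 was still first with 557 ± 24.6, but PLK2 came next with 148 ± 2.40, ahead of PLK4 with 81.7 ± 1.01 and PLK3 with 74.95 ± 4.50. PLK2 and PLK4 thus changed places. The order rests on each gene's transcript length: per kilobase of all annotated exons the levels were 688, 193, 63.4 and 56.6 for PLK1, PLK4, PLK2 and PLK3 in p21 OFF and 253, 70.0, 88.6 and 52.7 in p21 ON, in the same orders. With that length PLK2 (58.1 to 69.5) and PLK3 (48.7 to 65.7) overlapped in p21 OFF.

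The members were then compared within each library, where the scaling cancels. Ratios of normalized counts depend on transcript length, but their changes do not. The log2 ratio of PLK1 to PLK4 was 1.92 ± 0.13 in p21 OFF and 1.94 ± 0.05 in p21 ON, a change of 0.02 (SE 0.08; exact two-sided permutation p = 0.9). The groups overlapped, and a difference between the falls of PLK1 and PLK4 was not detected at this spread. The log2 ratio of PLK2 to PLK3 moved from 0.65 ± 0.09 to 1.23 ± 0.11, a change of 0.58 (SE 0.08), and the groups did not overlap (exact two-sided permutation p = 0.1). Each p21 ON library had a higher PLK2 to PLK3 ratio than each p21 OFF library.

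Each mitotic member also changed against each stress-responsive member. The log2 ratio of PLK1 to PLK2 went from 3.47 ± 0.15 to 1.55 ± 0.04 (change -1.93, SE 0.09), and PLK1 to PLK3 from 4.12 ± 0.23 to 2.77 ± 0.15 (change -1.35, SE 0.16). The log2 ratio of PLK2 to PLK4 went from -1.55 ± 0.16 to 0.39 ± 0.01 (change 1.95, SE 0.09), and PLK3 to PLK4 from -2.20 ± 0.24 to -0.84 ± 0.11 (change 1.37, SE 0.15). In linear terms PLK1 had 11.1 times the normalized counts of PLK2 in p21 OFF and 2.92 times in p21 ON, and PLK2 had 0.341 times those of PLK4 in p21 OFF and 1.31 times in p21 ON. The groups did not overlap for any of these 4 ratios, and each had an exact two-sided permutation p of 0.1, the smallest that 3 libraries against 3 allow. Of the 6 pairs compared, none could therefore reach 0.05, before or after adjustment. The mean of PLK1 and PLK4 minus that of PLK2 and PLK3, on the log2 scale, was 2.65, 2.86 and 3.01 in p21 OFF cells and 1.14, 1.27 and 1.16 in p21 ON cells, a change of -1.65 that is given without a test.

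**Figure D4:**
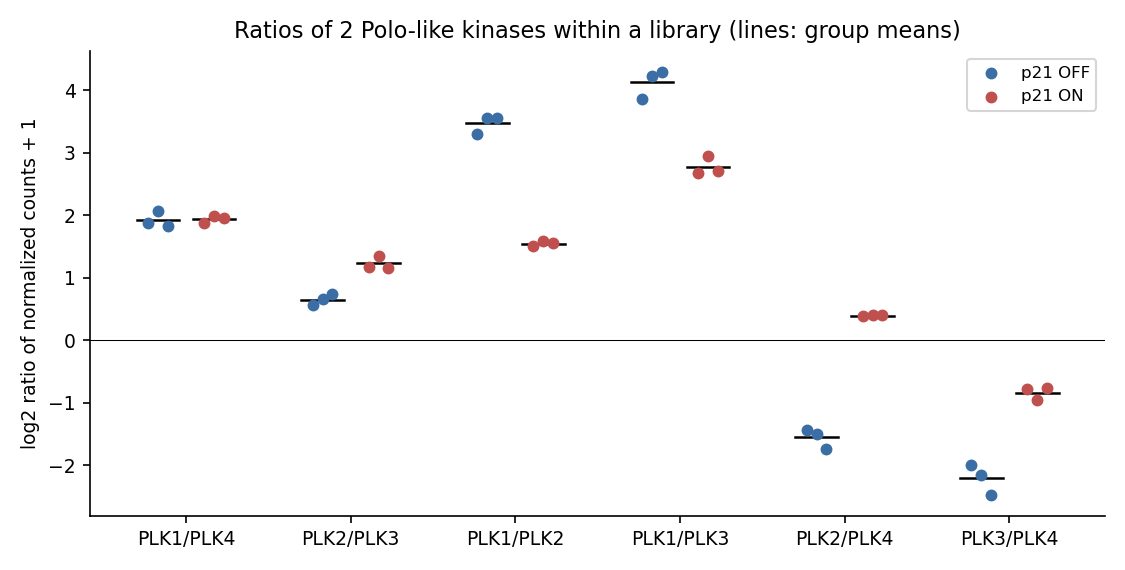
Within-library log2 ratio of normalized counts + 1 for the 6 pairs of Polo-like kinases, 1 point per library, with lines at the group means. PLK1/PLK4 has overlapping groups around 1.92 and 1.94, and in the other 5 pairs the p21 OFF and p21 ON points are separate.

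Genes that act with each kinase were taken from lists by role. Of 10 regulators of PLK1, 8 fell (80%, against 12.7% of all genes), 1 rose and 1 did not pass the test, with a median log2 fold change of -1.11. AURKA, which phosphorylates the PLK1 activation loop, fell from 1906 ± 87.1 to 765 ± 14.5 normalized counts (log2 fold change -1.32), and BORA, its cofactor for PLK1, fell by 0.78 on the log2 scale. FOXM1, a transcription factor for mitotic genes, fell by 1.23. CCNA2, CCNB1 and CDK1, subunits of the cyclin-dependent kinases that prime PLK1 docking sites, fell with log2 fold changes of -1.47, -1.39 and -1.38. KLHL22, an adaptor of the ubiquitin ligase that removes PLK1 from kinetochores, was the exception and rose by 0.38, from 524 ± 19.4 to 680.2 ± 14.4 normalized counts.

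Of 21 substrates and docking partners of PLK1, 17 fell (81.0%, against 12.7% of all genes), 1 rose and 3 did not pass the test, with a median log2 fold change of -1.15. The largest falls were in ERCC6L, a helicase of anaphase bridges (log2 fold change -1.57), CDC25C, the phosphatase that activates CDK1 (-1.55), and KIF20A, a kinesin that brings PLK1 to the central spindle (-1.43). NINL, a centrosomal microtubule-nucleation protein, rose by 0.31 and lost its call without p21 ON replicate 1. In the cell cycle lists used by the study, drawn from an earlier meta-analysis, PLK1 is in the high- and low-stringency G2/M lists. PLK4 is in the low-stringency list only. The study's text nevertheless names PLK4 among its high-stringency G2/M genes. Of the 101 tested genes of the high-stringency G2/M list, 93 fell (92.1%), with a median log2 fold change of -1.15. The shares that fell among PLK1 regulators (80%) and among its substrates and docking partners (81.0%) are thus not particular to genes that act with PLK1. Among the 417 tested genes of the low-stringency list PLK4 was the 20th lowest and PLK1 the 26th lowest in log2 fold change. PLK2 is in that list too, and there it was the 4th highest in log2 fold change. It was 1 of 5 genes called higher (1.2% of the list, against 10.5% of all genes), and 247 were called lower (59.2% against 12.7%).

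Of 15 genes of the PLK4 centriole pathway, 5 fell, 2 rose and 8 did not pass the test, and the median log2 fold change was -0.08. The falls were 33.3% of the list against 12.7% of all genes, and the rises 13.3% against 10.5%, a share near that of all genes. SASS6, which forms the cartwheel of the new centriole, fell from 1340.4 ± 26.8 to 681 ± 40.6 normalized counts (log2 fold change -0.98), and STIL, the PLK4 substrate that recruits it, fell by 0.87. CENPJ, which sets centriole length, fell by 0.94, and CEP152, a scaffold that binds PLK4, fell by 0.75. CEP192, the other PLK4 scaffold, was at 847 ± 74.1 and 857 ± 14.2 normalized counts (log2 fold change 0.02; limma adjusted p = 0.866). TUBGCP6 (0.24) and TRIM37 (0.16), the ubiquitin ligase of centriole assembly, were called higher, and both calls were lost when replicate 2 of p21 OFF, or replicate 1 or 3 of p21 ON, was left out. The TRIM37 call was also lost on leaving out replicate 3 of p21 OFF or replicate 2 of p21 ON, and with TMM scaling, edgeR, no filter or the replicate block. Without p21 OFF replicate 1 the CEP192 log2 fold change was -0.05.

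Of 14 early-response genes, the class in which PLK2 and PLK3 were first grouped, 1 rose, 3 fell and 10 did not pass the test, with a median log2 fold change of -0.06. The rise was 7.14% of the list against 10.5% of all genes and the falls 21.4% against 12.7%, so both shares lay near those of all genes for a list of this size. ATF3, a stress-induced transcription factor, rose by 0.41, from 288 ± 18.0 to 384 ± 45.3 normalized counts. JUNB fell by 0.30, JUN by 0.22 and KLF6 by 0.23, and the calls of JUN and KLF6 were lost without p21 ON replicate 1. The KLF6 call was also lost on leaving out any other library but replicate 1 of p21 OFF, and with library size scaling, DESeq2 or the replicate block. The number that fell was 5 without p21 OFF replicate 1 and 1 without p21 ON replicate 1. EGR1 was at 187 ± 3.33 and 185 ± 9.42 normalized counts, and FOS was low, at 19.0 ± 1.37 and 16.5 ± 4.93.

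Among 7 genes reported as partners or substrates of PLK2 and PLK3, 1 rose, 2 fell and 4 did not pass the test, with a median log2 fold change of -0.03. These are 14.3% and 28.6% of the list, against 10.5% and 12.7% of all genes, and with so few genes the counts are no result about the list. CHEK2, a DNA damage checkpoint kinase, fell by 1.04, from 258 ± 7.09 to 126 ± 15.98 normalized counts. CIB1, a calcium-binding protein that binds PLK3, fell by 0.22, and SIPA1L1, a synaptic target of PLK2, rose by 0.21. Both of these calls were lost when replicate 1 of p21 OFF, or replicate 1 or 3 of p21 ON, was left out, and the SIPA1L1 call also on leaving out replicate 2 of p21 ON. The CIB1 call was lost with library size scaling, DESeq2 or the replicate block as well, and the SIPA1L1 call with TMM scaling.

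**Figure D5:**
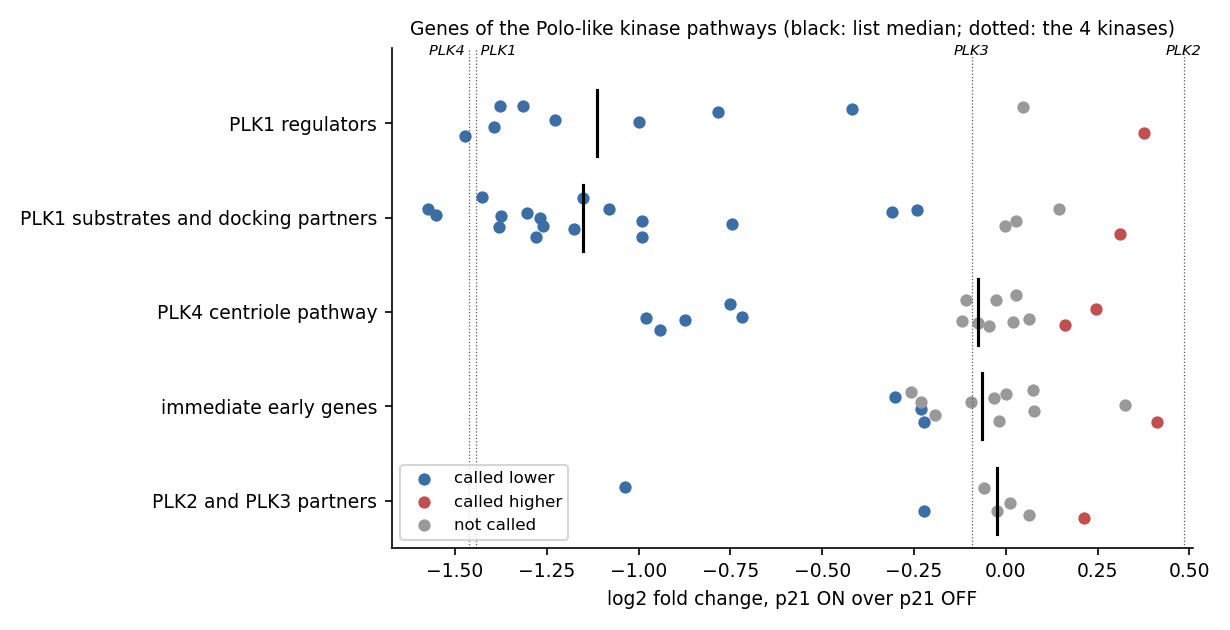
Log2 fold change (p21 ON minus p21 OFF) of each gene in the lists of PLK1 regulators, PLK1 substrates and docking partners, the PLK4 centriole pathway, early-response genes and partners of PLK2 and PLK3, with the median of each list as a black bar and the 4 kinases as dotted lines. The list medians run from -1.15 for PLK1 substrates and docking partners to -0.03 for partners of PLK2 and PLK3.

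The genes whose pattern over the 6 libraries was most like each kinase were found by the root mean square difference of gene-centred log2 values among 10441 genes with a mean of at least 100. Closest to PLK1 were KIF20A (0.0405), KIFC1 (0.0481), a minus-end kinesin, and BIRC5 (0.0501), the survivin subunit of the chromosomal passenger complex. Closest to PLK4 were the kinetochore gene NDC80 (0.0441), the centriolar gene POC1A (0.0450) and FAM64A (0.0543). PLK4 ranked 22nd in likeness to PLK1. Closest to PLK2 were the nucleoside transporter SLC29A2 (0.0461), CTH (0.0475), an enzyme of cysteine synthesis, and the transcription factor LHX2 (0.0542), which rose by 0.53, 0.41 and 0.59 in log2 fold change. Closest to PLK3 were C12orf57 (0.0399), S100A3 (0.0403) and the zinc transporter SLC39A4 (0.0425), none of which passed the test. The 6 points of each gene are the same 6 libraries, so they share depth and group. A change between groups like that of the kinase follows from the ranking and is no separate result.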

How the data were processed

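RNA was sequenced by the authors from 6 SaOS-2 libraries, 3 p21 OFF and 3 p21 ON. Reads were mapped to hg19 with STAR, counted on genes with HTSeq and divided by DESeq2 size factors, per the labels and the study's methods; the sources used here give no tool versions and no strand mode for counting. The values deposited by the authors are thus size-factor-scaled counts, a non-negative signal. All values were whole multiples of 1 step within a tolerance of 0.1 reads (100% of values), which returned the reads behind each value, between 12795490 and 21975045 per library. Counting intervals cover counting error only.

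The 13255 genes averaging 10 or more normalized counts were tested with limma 3.58.1 (trend) in R 4.3.3 on log2(normalized count + 1), without covariates, with Benjamini-Hochberg adjustment over all of them and a threshold of 0.05. Changes of weakly expressed genes are understated on this scale. Within-library ratios were tested by exact permutation. Alternatives were edgeR 4.0.16 (1401 genes called higher and 1647 lower) and DESeq2 1.42.0 (1112 and 1406) on the recovered reads, TMM and library size scaling, pseudocounts of 0.1 and 10, no filter, a replicate block and each library left out. The fits were also run on simulated counts with the same spread set for every library, unlike the data, and the outcome is not given here. The labels do not say that replicates are separate cultures, though the study's methods call them biological replicates; p-values measure only the spread between these samples.

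The named genes are the 4 kinases and PLK5, CDKN1A, the 3 largest called changes in each direction per list, genes chosen by role and the 3 genes most like each kinase. A planned list and some genes set by this rule are not reported here. Members, lists and motifs were chosen with earlier results of these data known. Symbols absent from the table were looked up among RefSeq synonyms. Positions are from GENCODE 44 on GRCh37.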

Additional observations from a re-analysis of the deposited data

How the results depend on the processing

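PLK1, PLK2 and PLK4 kept their direction and call under every alternative run, with log2 fold changes of -1.47 to -1.40, 0.42 to 0.55 and -1.495 to -1.417, and PLK3 passed the threshold in none (-0.20 to 0.02). Same-numbered replicates did not deviate together (correlations -0.057, -0.025 and -0.048), which cannot show whether the libraries were handled in pairs. With the replicate number as a block the log2 fold changes were -1.44, 0.48, -0.09 and -1.46 for PLK1, PLK2, PLK3 and PLK4. Without p21 OFF replicate 1 the sign turned for PLK3 (0.0200), CEP192 (-0.0514), C12orf57 (0.0176), S100A3 (0.0528) and SLC39A4 (0.0812), none of which passed the threshold; over all left-out libraries the other ends of their ranges were -0.195, 0.0726, -0.208, -0.150 and -0.128. Library size scaling turned EGR1 (0.0255) and SLC39A4 (0.0149), and leaving out p21 ON replicate 2 turned EGR1 (0.00964, with -0.0590 at the other end) and SLC39A4 (0.0273). The rises in the PLK4 centriole pathway numbered 1 in place of 2 with TMM scaling, edgeR, no filter or the replicate block. Among the partners of PLK2 and PLK3 the rises numbered 0 with TMM scaling, and the falls 1 with library size scaling, DESeq2 or the replicate block. The cause of these changes was not tested. With 1 library left out, calls over all genes ranged from 692 to 1488 higher and 888 to 1662 lower, lowest without p21 ON replicate 1 and next without p21 ON replicate 3 (739 and 1076). The ranges were 0 to 1 rises among PLK1 substrates, 0 to 2 rises in the PLK4 centriole pathway, 1 to 5 falls among immediate early genes, and 0 to 1 rises and 1 to 2 falls among partners of PLK2 and PLK3. Library size scaling called 2034 genes higher and 1194 lower. The changes in 5 of the 6 ratios kept their direction, and that of PLK1 to PLK4 ran from -0.0287 to 0.0911, below 0 with a pseudocount of 10 or without p21 OFF replicate 1, p21 OFF replicate 3 or p21 ON replicate 2; all moved by less than the replicate spread. PLK3 had the lowest read counts of the kinases tested, 134 to 236 per library. Its p21 OFF spread of 15.2% was also above the 6.96% from counting.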
